A study of Mus musculus with 9 samples.

Results

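The genes described are 10 transcripts that mark T cells and intraepithelial lymphocytes, Cd3d, Cd3e, Cd3g, Cd4, Cd8a, Cd8b1, Itgae, Gzma, Gzmb and Cd7, chosen by gene symbol from a table of 54146 genes, in which all 10 were found. They were measured by RNA-seq in colonic mucosa of 9 C57BL/6J mice at 15 wk of age, 5 of them ApcMin/+ (2 females, 3 males) and 4 of them ApcMin/+; p16cis/cis (3 females, 1 male). All 9 mice carry the Min mutation on 1 allele of Apc, which starts intestinal adenomas, and the p16cis/cis mice also carry, on both p16 alleles, a cis-element knocked in through the germline that draws DNA methylation onto the p16 promoter. The comparison asks which transcripts of the mucosa differ with this engineered p16 epimutation, and no mice without the Min mutation were analysed here. Per the labels the tissue was colonic mucosa, and per the methods the RNA came from colonic crypts. The values are normalized counts, which are reads per gene scaled by each mouse's size factor, and 1 read was worth between 0.951 and 1.595 normalized counts.

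Intraepithelial lymphocytes are T cells that lie between the epithelial cells of the gut. Most of them carry CD8, often as a homodimer of the CD8α chain in place of the CD8αβ heterodimer of conventional cytotoxic T cells. Intraepithelial lymphocytes are held in the epithelium by an integrin that contains CD103 and binds E-cadherin. They store granzymes and can kill damaged or infected epithelial cells. CD4+ T cells are found mainly in the lamina propria, the connective tissue under the epithelium.

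The recovered reads on genes ranged from 13523500 to 17885918 per mouse. The 10 genes together held 87 reads in ApcMin/+ replicate 4, 666 to 1210 reads in the other 4 ApcMin/+ mice and 410 to 493 reads in the ApcMin/+; p16cis/cis mice. ApcMin/+ replicate 4, a male, thus stood below every other mouse in these transcripts, and the genotype test of each of the 10 genes is given with and without it. Mitochondrial genes took 8.74% to 15.6% of the reads in ApcMin/+ mice and 19.3% to 29.8% in ApcMin/+; p16cis/cis mice, and this gap cannot be told apart from genotype.

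With all 9 mice, none of the 10 genes differed between the genotypes by the test. Of the 9 that reached a normalized count of 10 in 4 mice or more, 0 passed an adjusted p of 0.05 in limma (Benjamini-Hochberg over 14410 genes), 5 had a negative and 4 a positive log2 fold change, and their median was -0.20 beside -0.0041 for all genes tested. Over all genes, 8.75% passed as lower and 8.14% as higher in ApcMin/+; p16cis/cis mice. An unadjusted p under 0.05 was reached by 1 of the 9, Itgae, where 33.2% of all genes reached it. edgeR on the recovered reads also passed 0 of the 9, and DESeq2 passed 1, Itgae, where 10.1% of all genes it tested passed as lower. In every one of the 10 genes the values of the genotypes overlapped, whereas 16.2% of all genes tested did not overlap.

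Without ApcMin/+ replicate 4, 5 of the 9 tested genes passed, Cd8a, Cd8b1, Itgae, Gzma and Gzmb, and all 5 were lower in ApcMin/+; p16cis/cis mice. Over all genes 12.5% then passed as lower and 11.7% as higher. The same 5 genes had values that did not overlap between the genotypes, against 13.6% of all genes that were lower without overlap. The 3 CD3 chains and Cd7 did not pass. The median log2 fold change of the 9 genes moved from -0.20 to -0.92, while that of all genes tested was -0.0056. This mouse was singled out by its values in these same genes, where it was the lowest ApcMin/+ mouse in all 10. Leaving it out thus lowers each of their fold changes by construction, and the shares over all genes carry no such choice. These passes are a description and not separate evidence, and the fits below without this mouse rest on the same choice. In bulk tissue, fewer T cells and less RNA per T cell cannot be told apart, here or in any result below.

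**Figure D1:**
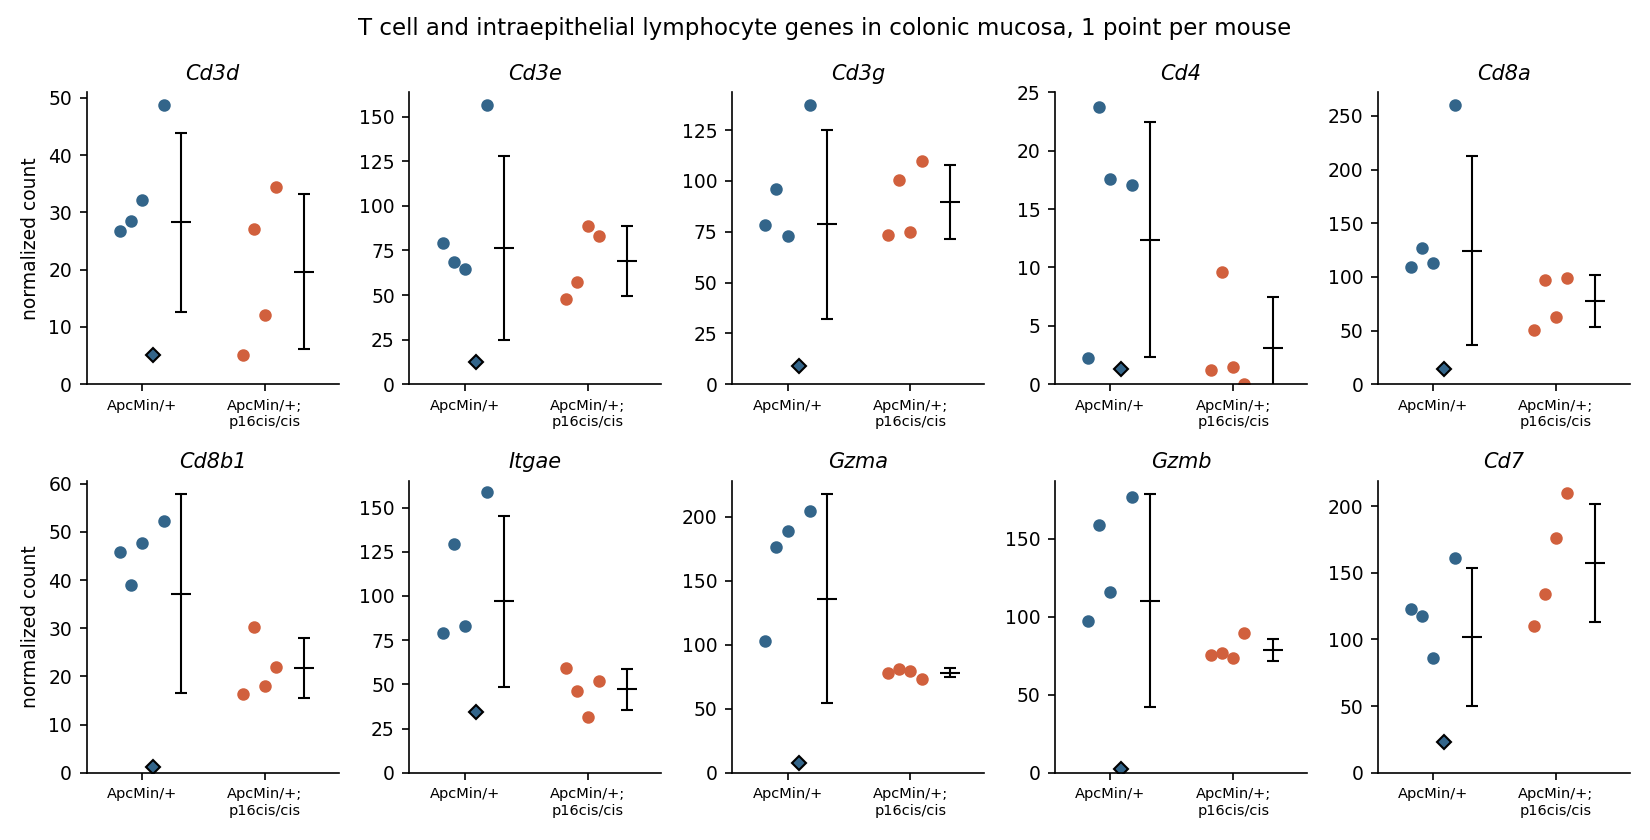
Normalized count of each of the 10 genes (vertical axis, from 0) in every mouse, in ApcMin/+ (blue, n = 5) and ApcMin/+; p16cis/cis (orange, n = 4); the black bar is the mean with 1 SD, cut off at 0 for Cd4, and the outlined diamond is ApcMin/+ replicate 4. The diamond lies below the other 4 ApcMin/+ mice in all 10 genes, and Gzma and Gzmb in the 4 ApcMin/+; p16cis/cis mice lie within 73.6 to 81.4 and 73.6 to 89.3.

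The CD3 chains carry the signal of the T cell receptor into the cell and mark every mature T cell. Their genes lie together on chromosome 9 of GRCm38 (GENCODE M21): Cd3g (ENSMUSG00000002033.14, chr9:44969572-44980431, minus strand) and Cd3d (ENSMUSG00000032094.8, chr9:44981786-44987339, plus strand) stand head to head with 1355 bp between their start sites, and Cd3e (ENSMUSG00000032093.7, chr9:44998740-45009627, minus strand) ends 11401 bp beyond Cd3d.

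Cd3e, the ε chain, had normalized counts of 79.2, 68.5, 64.4, 12.7 and 157 in ApcMin/+ replicates 1 to 5 and 48.0, 57.4, 88.7 and 83.0 in ApcMin/+; p16cis/cis replicates 1 to 4. The p16cis/cis values all lay inside the ApcMin/+ range. Cd3g, the γ chain, had 78.1, 96.0, 73.2, 8.90 and 137 in ApcMin/+ mice and 73.2, 100.5, 75.1 and 109.7 in ApcMin/+; p16cis/cis mice. Apart from ApcMin/+ replicate 4, the Cd3g values of both genotypes covered much the same range. Cd3d, the δ chain, had 26.8, 28.5, 32.2, 5.08 and 48.8 in ApcMin/+ mice and 5.05, 27.1, 12.0 and 34.5 in ApcMin/+; p16cis/cis mice. The low values of Cd3d, in ApcMin/+ replicate 4 and p16cis/cis replicate 1, were 4 reads each.

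The log2 fold changes of ApcMin/+; p16cis/cis against ApcMin/+ were -0.53 ± 0.65 (SE) for Cd3d, 0.18 ± 0.55 for Cd3e and 0.57 ± 0.61 for Cd3g (limma, adjusted p = 0.607, 0.852 and 0.550), each smaller than the spread between mice. For Cd3e the mean normalized count was lower in ApcMin/+; p16cis/cis mice, 69.3 ± 19.7 (SD, n = 4) against 76.3 ± 51.7 (SD, n = 5), while its log2 fold change was positive, and edgeR and DESeq2 gave -0.15 and -0.14. Without ApcMin/+ replicate 4 the log2 fold changes were -1.03 for Cd3d, -0.35 for Cd3e and -0.08 for Cd3g (adjusted p = 0.155, 0.427 and 0.837). The 95% interval of Cd3g with all mice, -0.75 to 1.90, still holds a change of more than 1 on the log2 scale.

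The coreceptors CD8 and CD4 bind MHC molecules beside the T cell receptor. Cd8a (ENSMUSG00000053977.13, chr6:71373427-71379173, plus strand) and Cd8b1 (ENSMUSG00000053044.8, chr6:71322788-71337494, plus strand) are neighbors, 35933 bp apart, and Cd4 (ENSMUSG00000023274.14, chr6:124864692-124888221, minus strand) lies elsewhere on the same chromosome.

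Cd8a, the α chain, had normalized counts of 109, 126.5, 113, 13.98 and 259.9 in ApcMin/+ replicates 1 to 5 and 50.5, 97.3, 63.1 and 98.7 in ApcMin/+; p16cis/cis replicates 1 to 4. The 4 ApcMin/+ mice other than replicate 4 were all above the 4 p16cis/cis mice. For this gene the log2 fold change was -0.27 ± 0.63 (SE, adjusted p = 0.801) with all mice and -0.92 ± 0.31 (adjusted p = 0.0463) without ApcMin/+ replicate 4. Without ApcMin/+ replicate 5, the highest value, it was 0.11, so with all 9 mice the direction of Cd8a rested on single mice.

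Cd8b1, the β chain found on conventional CD8 T cells, had 45.8, 38.98, 47.8, 1.27 and 52.2 in ApcMin/+ mice and 16.4, 30.3, 18.03 and 21.9 in ApcMin/+; p16cis/cis mice. The value of ApcMin/+ replicate 4 was 1 read. The other ApcMin/+ mice again lay above all 4 p16cis/cis mice, with a mean of 46.2 ± 5.51 (SD, n = 4) against 21.7 ± 6.21 (SD, n = 4). The log2 fold change was -0.21 ± 0.80 (SE, adjusted p = 0.883) with all mice and -1.09 ± 0.28 (adjusted p = 0.0155) without ApcMin/+ replicate 4.

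Cd4 was near the limit of detection. Its normalized counts were 2.23, 23.8, 17.6, 1.27 and 17.03 in ApcMin/+ mice and 1.26, 9.57, 1.503 and 0 in ApcMin/+; p16cis/cis mice. Only ApcMin/+ replicates 2, 3 and 5 held more than 10 reads, and p16cis/cis replicate 4 held 0 of 13923341 reads, which allows up to 3 reads or a normalized count of 4.70 (counting error only). Cd4 missed the filter of the fit, and its means, 12.4 ± 10.1 (SD, n = 5) against 3.08 ± 4.37 (SD, n = 4), did not differ beyond the spread between mice (exact permutation test over all splits of the mice into 5 and 4, two-sided, p = 0.103, and p = 0.0571 without ApcMin/+ replicate 4). No fold is given, since 3 of the 4 p16cis/cis mice were under 3 reads.

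Itgae (ENSMUSG00000005947.11, chr11:73090583-73147446, plus strand) encodes CD103, the αE chain of the integrin that holds T cells in the epithelium. It had normalized counts of 79.2, 129, 82.9, 34.3 and 159 in ApcMin/+ replicates 1 to 5 and 59.4, 46.3, 31.6 and 51.7 in ApcMin/+; p16cis/cis replicates 1 to 4. ApcMin/+ replicate 4 was again the lowest of its group, and its value lay below 3 of the 4 p16cis/cis mice. The log2 fold change was -0.89 ± 0.39 (SE) with all mice, with an unadjusted p of 0.0411 and an adjusted p of 0.133 in limma, and it was negative in every alternative run, between -1.39 and -0.67. DESeq2 gave an adjusted p of 0.0413. Without ApcMin/+ replicate 4 the log2 fold change was -1.21 ± 0.28 (adjusted p = 0.0103), and with the mitochondrial share as a covariate the adjusted p was 0.873.

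Gzma (ENSMUSG00000023132.8, chr13:113093825-113100981, minus strand) and Gzmb (ENSMUSG00000015437.5, chr14:56258838-56262260, minus strand) encode granzymes A and B, serine proteases that cytotoxic lymphocytes release into target cells. Gzma had normalized counts of 103, 177, 189, 7.63 and 204 in ApcMin/+ replicates 1 to 5 and 78.3, 81.4, 79.6 and 73.6 in ApcMin/+; p16cis/cis replicates 1 to 4. Gzmb had 97.1, 159, 116, 2.54 and 177 in ApcMin/+ mice and 75.8, 76.6, 73.6 and 89.3 in ApcMin/+; p16cis/cis mice. The p16cis/cis mice were close to each other in both granzymes, below every ApcMin/+ mouse except replicate 4, which held 6 reads of Gzma and 2 of Gzmb.

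With all mice the log2 fold changes were -0.20 ± 0.76 (SE) for Gzma and 0.29 ± 0.93 for Gzmb (limma, adjusted p = 0.885 and 0.859). For Gzmb the sign went against its means, 110.3 ± 68.2 (SD, n = 5) for ApcMin/+ against 78.8 ± 7.09 (SD, n = 4) for ApcMin/+; p16cis/cis, and against edgeR and DESeq2, which gave -0.50 and -0.49. Once that mouse was left out, the log2 fold changes were -1.05 ± 0.22 for Gzma and -0.76 ± 0.21 for Gzmb (adjusted p = 0.00636 and 0.0242). Of the 9 tested genes Gzma then had the smallest adjusted p.

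Cd7 (ENSMUSG00000025163.6, chr11:121036747-121039418, minus strand) encodes a surface protein of T cells and NK cells that intraepithelial lymphocytes carry. It had normalized counts of 123, 118, 85.8, 22.9 and 161 in ApcMin/+ replicates 1 to 5 and 109.9, 134, 176 and 209.9 in ApcMin/+; p16cis/cis replicates 1 to 4. Its p16cis/cis mean, 157 ± 44.4 (SD, n = 4), was above that of ApcMin/+ mice, 102 ± 51.7 (SD, n = 5). The log2 fold change was 0.82 ± 0.46 (SE, adjusted p = 0.240) with all mice and 0.36 ± 0.24 (adjusted p = 0.301) without ApcMin/+ replicate 4. It was positive in every alternative run, between 0.08 and 1.05, and without ApcMin/+ replicate 4 it was the only 1 of the 9 genes with a positive value.

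**Figure D2:**
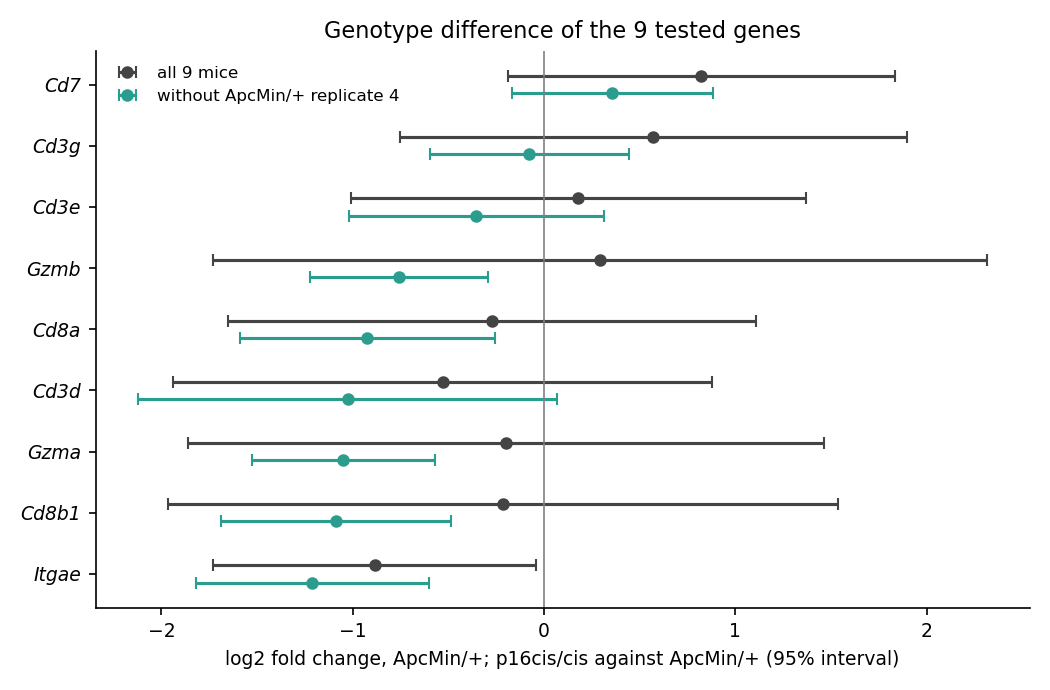
Log2 fold change of ApcMin/+; p16cis/cis against ApcMin/+ (horizontal axis, points) with its 95% interval (bars, limma) for the 9 tested genes, with all 9 mice in grey and without ApcMin/+ replicate 4 in green. With all mice the intervals of 8 of the 9 genes include 0, and without that mouse those of Cd8a, Cd8b1, Itgae, Gzma and Gzmb lie below 0.

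The promoters of the granzymes and of 2 CD3 chains are shown to compare genes of shared function. RefSeq promoters of GRCm38.p6 matched 6 of the 10 genes, Cd3d, Cd3e, Cd3g, Cd8a, Gzma and Gzmb. In the 250 bases before each start, on both strands, 5 sets of letters were searched: the RUNX core TGTGGT, the ETS core AGGAAG, the GATA letters AGATAA, the E-box CAGCTG and the TATA letters TATAAA, of which no pair has the same letters. The 150 bases before the start are printed 5′ to 3′ on the strand of the gene, with the matches in capitals, the RUNX core in Gzma and Gzmb, the ETS core in Cd3e and the GATA letters in Cd3g.
Gzma, chr13:113100982-113101131, minus strand: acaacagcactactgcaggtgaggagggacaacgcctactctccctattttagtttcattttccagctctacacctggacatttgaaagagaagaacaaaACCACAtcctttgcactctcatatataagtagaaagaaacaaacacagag
Gzmb, chr14:56262335-56262484, minus strand: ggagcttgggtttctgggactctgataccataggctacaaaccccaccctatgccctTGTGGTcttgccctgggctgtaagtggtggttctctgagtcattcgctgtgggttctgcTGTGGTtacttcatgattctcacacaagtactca
Cd3e, chr9:45009612-45009761, minus strand: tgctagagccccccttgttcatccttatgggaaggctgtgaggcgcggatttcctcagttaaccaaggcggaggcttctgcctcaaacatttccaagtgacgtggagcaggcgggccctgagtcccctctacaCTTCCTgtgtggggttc
Cd3g, chr9:44980432-44980581, minus strand: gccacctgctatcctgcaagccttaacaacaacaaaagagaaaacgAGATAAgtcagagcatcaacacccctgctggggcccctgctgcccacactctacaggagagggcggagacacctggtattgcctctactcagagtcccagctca

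The RUNX core was found in both granzyme promoters, starting 50 bases before the start of Gzma (as ACCACA, its reverse complement) and 93 and 34 bases before the start of Gzmb, and in none of the other 4. It is in 14.05% of the 32851 RefSeq promoters searched in the same way. The ETS core was found in Cd3d, 198 bases before the start, and in Cd3e, 224 and 17 bases before it (29.5% of all promoters). The GATA letters were found 104 bases before the start of Cd3g (9.99% of all promoters). None of the 6 held the letters CAGCTG or TATAAA, which 13.0% and 12.4% of all promoters hold. Other forms of the E-box and the TATA box were not searched. The RefSeq start of Gzmb lies 74 bp from the GENCODE start and that of Cd3e 16 bp, and a match is a description of these letters only.

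Compared per kb of exon, the levels in ApcMin/+ mice were 135 ± 81.3 normalized counts per kb for Gzma, 90.1 ± 45.7 for Cd7 and 76.8 ± 47.5 for Gzmb (SD, n = 5). A middle group held Cd8a at 34.3 ± 24.2, Cd8b1 at 25.1 ± 13.9, Cd3g at 24.1 ± 14.2, Itgae at 21.2 ± 10.5, Cd3e at 18.7 ± 12.7 and Cd3d at 15.6 ± 8.61 per kb. Cd4, at 3.07 ± 2.49 per kb, was last, below Cd3d in 9 of 9 mice. Neighbors in this order, other than Cd3d and Cd4, differed by less than the larger of their SDs. Gzma was above Cd7 in 3 of 9 mice, Cd8b1 above Cd3g in 2 of 9 and Itgae above Cd3e in 4 of 9. In ApcMin/+; p16cis/cis mice Cd7 came first, at 139 ± 39.2 per kb (SD, n = 4), followed by Gzma at 77.8 ± 3.29 and Gzmb at 54.9 ± 4.94, and Cd4 was again last at 0.765 ± 1.08.

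ApcMin/+ replicate 4 had the lowest value of the 5 ApcMin/+ mice in 10 of the 10 genes and the lowest of all 9 mice in 7, where it was the lowest mouse in 16.9% of all genes tested. ApcMin/+ replicate 5 had the highest value of all mice in 8, against 15.5% of all genes. Because these values are normalized to each library, they say nothing of how much tissue or RNA each mouse gave.

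To set the genes against each other within a mouse, ratios of normalized counts were taken. They do not depend on the size factor, are not corrected for gene length and are compared between mice only, as a description without a test, since they were chosen after the values were seen. The summed CD3 chains relative to Ptprc, which encodes CD45 on all leukocytes, were 0.422 to 0.875 in ApcMin/+ mice and 1.08 to 1.36 in ApcMin/+; p16cis/cis mice. This ratio was higher in every p16cis/cis mouse than in any ApcMin/+ mouse, replicate 4 included. Of all single genes tested 16.2% show no overlap, and the share among such ratios was not computed. Ptprc itself had 276, 457, 227, 30.5 and 750.3 in ApcMin/+ mice and 99.8, 153, 162 and 168 in ApcMin/+; p16cis/cis mice, with overlap between the genotypes through ApcMin/+ replicate 4.

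Relative to the summed CD3 chains, Cd8a was 0.524 to 0.758 in ApcMin/+ mice and 0.359 to 0.526 in ApcMin/+; p16cis/cis mice, overlapping only through ApcMin/+ replicate 4 (0.524) and p16cis/cis replicate 2 (0.526). Itgae relative to CD3 was 0.430 to 1.29 against 0.179 to 0.470. Cd7 relative to CD3 was 0.470 to 0.857 against 0.724 to 1.00, with ApcMin/+ replicate 4 as the highest ApcMin/+ mouse. The medians of these 3 ratios were 0.655 and 0.417 for Cd8a, 0.489 and 0.239 for Itgae and 0.611 and 0.897 for Cd7, in ApcMin/+ and ApcMin/+; p16cis/cis mice, and the genotypes overlapped in each.

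The share of Cd8b1 relative to Cd8a was 9.09% to 42.2% in ApcMin/+ mice and 22.2% to 32.5% in ApcMin/+; p16cis/cis mice. The p16cis/cis range lay inside the ApcMin/+ range, so the balance of β and α chain transcripts was not separated by genotype. Gzmb relative to Gzma was 33.3% to 94.6% in ApcMin/+ mice and 92.5% to 121% in ApcMin/+; p16cis/cis mice. Cd4 relative to Cd8a was 2.04% to 18.8% against 0% to 9.84%, which rests on few Cd4 reads.

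**Figure D3:**
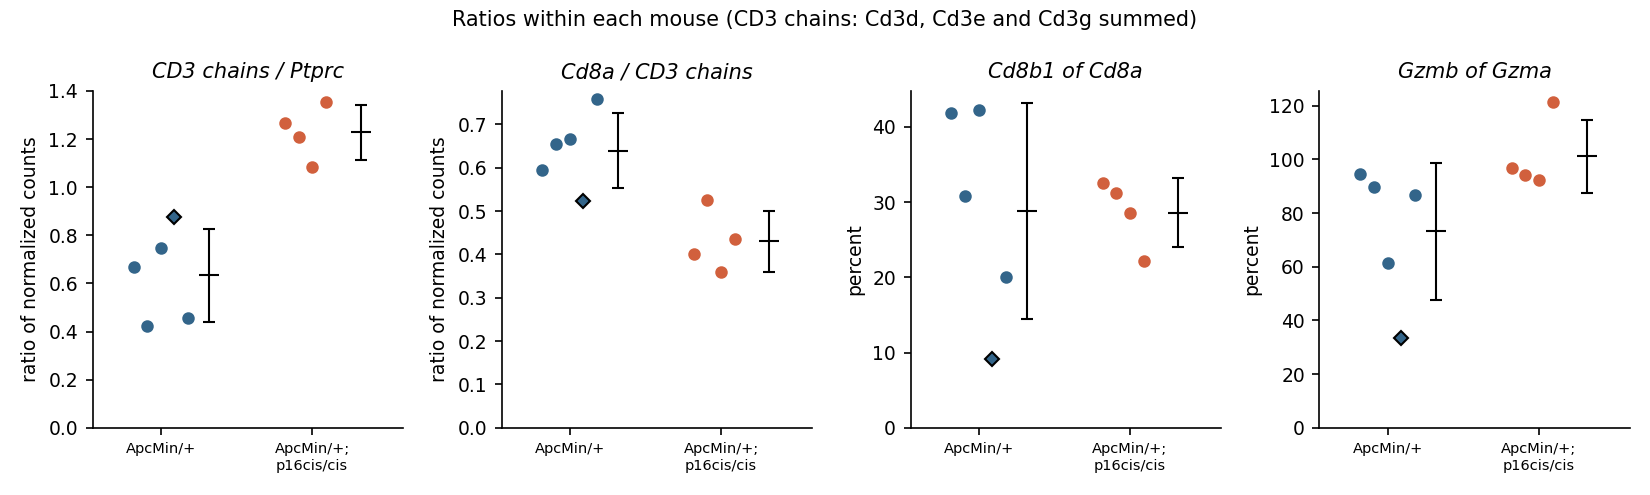
Ratios of normalized counts within each mouse (vertical axes, from 0, as a ratio or in percent) in ApcMin/+ (blue, n = 5) and ApcMin/+; p16cis/cis (orange, n = 4), with the mean and 1 SD in black and ApcMin/+ replicate 4 as an outlined diamond. CD3 chains over Ptprc run from 0.422 to 0.875 and from 1.08 to 1.36 without overlap, while the percent of Cd8b1 relative to Cd8a overlaps.

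Partner genes were grouped in 4 lists by function and 7 lists of cell type markers. Of the genes of the T cell receptor complex and its proximal signaling, 21 were tested and 0 passed in either direction with all mice (limma), with a median log2 fold change of -0.19. Lck, the kinase bound to CD4 and CD8, had means of 150.2 ± 45.6 and 133 ± 37.1 in ApcMin/+ and ApcMin/+; p16cis/cis mice (SD, n = 5 and 4 here and below) (log2 fold change -0.15 ± 0.27, adjusted p = 0.734). Fyn, a related kinase, had 87.4 ± 28.1 and 90.8 ± 22.1 (0.09 ± 0.27, adjusted p = 0.847). Without ApcMin/+ replicate 4, 6 of the 21 passed, all lower, and the median was -0.74. Among them were the receptor chain Trac at -0.96 (adjusted p = 0.0194) and Cd247, the ζ chain, at -1.58 (adjusted p = 0.0410). The other tested receptor constant regions did not pass in that fit. Trbc1 was at 0.02, Trbc2 at -0.26 and Trdc at 0.01, and Tcrg-C1, Tcrg-C2 and Tcrg-C4 were at -0.16, 0.12 and 0.06. With all mice these other regions had positive values (0.13 to 0.98), and none passed. All these chains were named after their values were seen.

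Among the cytotoxic effectors and NK receptors, 0 of 14 tested passed with all mice, with a median of -0.10. Ccl5, a chemokine stored by cytotoxic T cells, was at 232 ± 128 and 207 ± 25.9, and its log2 fold change came to 0.27 ± 0.63 (adjusted p = 0.804), and Ctsw, a cathepsin of cytotoxic lymphocytes, was at 87.9 ± 57.0 and 98.8 ± 54.7 (0.34 ± 0.55, adjusted p = 0.705). Without ApcMin/+ replicate 4 the median was -0.45 and 2 genes, named after their values were seen, passed in opposite directions. Gzmk, another granzyme, was lower by this fit (-1.96, adjusted p = 0.0142), and Hcst, the DAP10 adaptor of NK receptors, was higher (1.07, adjusted p = 0.00970). Hcst was in ApcMin/+ replicate 4, at 54.7, above the other 4 ApcMin/+ mice, unlike the 10 genes.

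Of 10 tested helper and regulatory T cell genes, 0 passed with all mice, with a median of -0.34, and 2 were lower without ApcMin/+ replicate 4 (Il7r among them, named after its values were seen), with a median of -0.24. Tcf7, a transcription factor of naive and memory T cells, was at 231 ± 89.6 and 229 ± 28.5, with a log2 fold change of 0.07 ± 0.26 (adjusted p = 0.880). The cytokine gene Il22 and the receptor gene Il23r were at 0 reads in all 9 mice.

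In the list of intraepithelial homing, retention and epithelial partner genes, 3 of 21 tested passed in limma with all mice, all lower, beside 8.75% of all genes that passed as lower, and the median was -0.48. These 3 are not T cell genes. Btnl1, Btnl4 and Btnl6 encode butyrophilin-like proteins on the surface of gut epithelial cells, and Btnl1 with Btnl6 maintains γδ intraepithelial lymphocytes in the mouse intestine. Btnl6 had normalized counts of 711, 846, 937, 728 and 854 in ApcMin/+ replicates 1 to 5 and 249, 217, 499 and 258 in ApcMin/+; p16cis/cis replicates 1 to 4. The genotypes did not overlap, and ApcMin/+ replicate 4 was within the range of its group.

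Btnl1 had 854, 1236, 1686, 1963 and 1136 in ApcMin/+ mice and 607, 649, 697 and 489 in ApcMin/+; p16cis/cis mice, also without overlap. For Btnl4 the values were 287, 361, 368, 389 and 403 against 154, 123, 275 and 128, the closest of the 3 to an overlap. The log2 fold changes were -1.49 ± 0.21 (SE) for Btnl6, -1.12 ± 0.21 for Btnl1 and -1.15 ± 0.22 for Btnl4 (limma, adjusted p = 0.00247, 0.00736 and 0.00743). All 3 fell in each of the 9 fits that left out 1 mouse, with adjusted p-values of at most 0.0111, 0.0294 and 0.0292. With the mitochondrial share as a covariate none of the 3 passed (adjusted p = 0.848, 0.861 and 0.863), nor did any of the 14410 genes, and among the 5 females alone the log2 fold changes were -1.36 for Btnl6, -0.70 for Btnl1 and -1.05 for Btnl4 (adjusted p = 0.0423, 0.0718 and 0.106).

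Among other epithelial partners, chosen after their values were seen, H2-T3, which encodes the TL antigen that binds CD8αα, had a log2 fold change of -0.69 ± 0.25 (adjusted p = 0.0733), and Btnl2 of -0.47 ± 0.22 (adjusted p = 0.164). Of the 21 tested in this list 16 had a negative and 5 a positive log2 fold change. Il15ra was at 0.30 ± 0.13 (adjusted p = 0.135), with 171 to 225 in ApcMin/+ and 233 to 258 in ApcMin/+; p16cis/cis mice. Those values did not overlap, as in 16.2% of all genes tested. Cdh1, which encodes E-cadherin, was at 0.005 ± 0.13 (adjusted p = 0.983) and Ccl25 at -0.05 ± 0.23 (adjusted p = 0.910). Trdc, the constant region of the δ receptor chain, was at 27.8 ± 9.06 in ApcMin/+ and at 33.3 ± 17.3 in ApcMin/+; p16cis/cis mice (log2 fold change 0.13 ± 0.41, adjusted p = 0.859). Btnl4 and Btnl6 are paralogs, and how reads shared between them were divided was not checked. When replicate 4 of ApcMin/+ was left out, 8 of the 21 genes of this list passed, all lower, with a median of -0.64, the 3 Btnl genes among them.

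**Figure D4:**
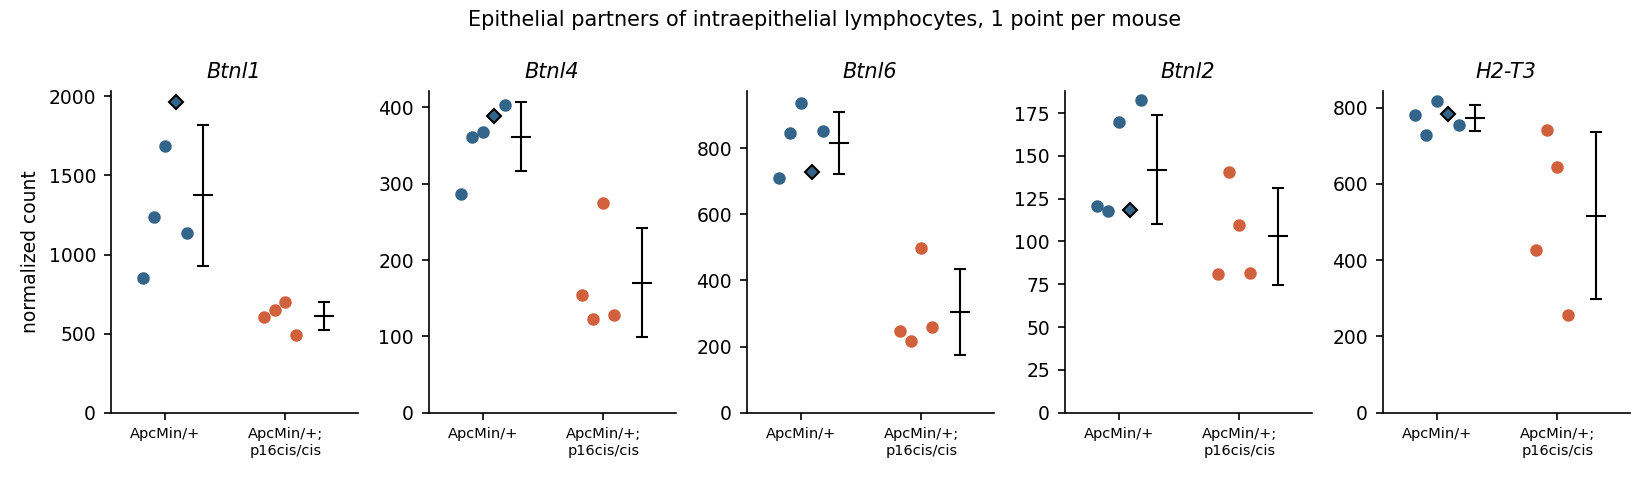
Normalized count (vertical axis, from 0) of 5 epithelial partner genes of intraepithelial lymphocytes in every mouse, in ApcMin/+ (blue, n = 5) and ApcMin/+; p16cis/cis (orange, n = 4), with the mean and 1 SD in black and ApcMin/+ replicate 4 as an outlined diamond. Btnl1, Btnl4 and Btnl6 are lower in all 4 p16cis/cis mice without overlap, with ApcMin/+ replicate 4 among its group, while Btnl2 and H2-T3 did not pass the test.

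By count tests on the recovered reads, the genes that limma tested in the 3 lists with 0 passing gave 0 in edgeR and, in DESeq2, 0 of 21 for the receptor complex, 1 of 14 for the cytotoxic list (Hcst, higher) and 1 of 10 for the helper list (Il7r, lower). At an unadjusted p under 0.05 in limma these lists had 0, 1 and 1 genes, the same Hcst and Il7r, where 33.2% of all genes reached it.

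The markers of other cells show which of them moved with the 10 genes. All 6 pan leukocyte markers were tested and had negative log2 fold changes, 0 of 6 passed with all mice (limma, median -0.59), and 5 of 6 were lower without ApcMin/+ replicate 4 (median -1.33). Their summed normalized count was 189 in ApcMin/+ replicate 4, 975.3 to 2317 in the other ApcMin/+ mice and 523 to 903 in the ApcMin/+; p16cis/cis mice. Ptprc had a log2 fold change of -0.70 ± 0.69 (adjusted p = 0.522) and -1.42 ± 0.32 without that mouse (adjusted p = 0.00924), and Rac2, a GTPase of blood cells, -0.18 ± 0.37 (adjusted p = 0.773). ApcMin/+ replicate 4 was thus low in leukocyte transcripts at large and not in T cell transcripts alone.

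B and plasma cell markers had the most negative median of the 7 marker lists. All 8 were tested, and 1, Jchain, which joins polymeric immunoglobulins, passed as lower with all mice, at 148 ± 106 against 15.98 ± 2.55 and a log2 fold change of -2.65 ± 0.64 (adjusted p = 0.0175). The median was -1.67, and 4 passed without ApcMin/+ replicate 4 (median -2.48). The summed markers did not show it, at 4124 to 5204 against 3098 to 4227, since Sdc1, which epithelial cells also express, makes up 78.2% to 99.3% of the sum. Of 8 tested macrophage and dendritic cell markers 1 passed, Lyz2, a lysozyme, lower by -1.56 ± 0.30 on the log2 scale (adjusted p = 0.00745), with a summed level of 142 to 403 against 186 to 229, a median of -0.49 and -0.97 without ApcMin/+ replicate 4 (3 lower). Clec9a, of dendritic cells, was at 0 reads in all mice.

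Of 4 tested mast cell markers 0 passed (median 0.74), and Kit, which other cells of the colon also express, was at -0.27 ± 0.11 (adjusted p = 0.123) and the protease Mcpt1 at 1.03 ± 0.58 (adjusted p = 0.241). Kit alone passed, lower, without ApcMin/+ replicate 4 (median 0.45). Of 3 tested innate lymphoid cell markers 0 passed with or without that mouse (medians -0.40 and -0.07), with Areg at 0.53 ± 0.33 (adjusted p = 0.293) and Zbtb16 at -0.40 ± 0.41 (adjusted p = 0.535). The summed mast cell markers were 1401 to 1909 against 1197 to 1557, and those of innate lymphoid cells 283 to 480.0 against 341 to 1029.

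The epithelial markers check the labelled tissue. All 12 were tested with a median of -0.14, Epcam lay between 24444.0 and 38615.8 in all mice, and 1 passed, Slc26a3, the chloride exchanger of surface colonocytes, at 10375.8 ± 2772 against 4489 ± 1558 and a log2 fold change of -1.23 ± 0.24 (adjusted p = 0.00848). Their summed level was 638961 in ApcMin/+ replicate 4, 384107 to 420842 in the other ApcMin/+ mice and 382499 to 437614 in the ApcMin/+; p16cis/cis mice. In ApcMin/+ replicate 4 Muc2, Car1 and Krt19 were the largest parts of that sum (187680, 165058 and 104491), while Epcam, at 30335.6, lay within the range of its group and the stem cell marker Lgr5, at 165, was the lowest of all 9 mice. Without this mouse 1 of 12 epithelial markers was lower and 1 higher (median -0.23). Of 9 tested markers of stroma, muscle and vessels 1 passed, the collagen Col3a1 (-2.92 ± 0.88, adjusted p = 0.0414), with a median of -1.44 and -1.62 without ApcMin/+ replicate 4, where 5 were lower. Col3a1 missed the threshold in 6 of the 9 fits that left out 1 mouse (ApcMin/+ replicates 1, 2, 3 and 5 and p16cis/cis replicates 1 and 4, adjusted p up to 0.110), while Jchain, Lyz2 and Slc26a3 passed in all 9. The summed level of these stromal markers was 250.4 in ApcMin/+ replicate 4, 412 to 866 in the other ApcMin/+ mice and 205 to 372 in the ApcMin/+; p16cis/cis mice. Of the marker lists with 0 passing in limma, edgeR passed 0 in each. DESeq2 passed 1, the pan leukocyte marker Cd53, as lower, where 10.1% of all genes it tested passed as lower. An unadjusted p under 0.05 in limma was reached by 0 of 6 pan leukocyte, 2 of 4 mast cell and 1 of 3 innate lymphoid cell markers. Over all genes 33.2% reached it. Of the lists with 1 passing in limma, edgeR and DESeq2 passed 2 and 4 of 8 B and plasma cell markers, 1 and 2 of 8 macrophage and dendritic cell markers, 1 and 5 of 12 epithelial markers and 1 and 2 of 9 stromal markers. The DESeq2 passes were lower in 4 of 4 B and plasma cell, 1 of 2 macrophage and dendritic cell, 4 of 5 epithelial and 2 of 2 stromal markers. The other macrophage marker, Cd68, was higher, at 33.5 ± 7.82 in ApcMin/+ against 65.2 ± 34.2 in ApcMin/+; p16cis/cis mice. How far these other cells had a part in the values of the 10 genes was not tested.

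**Figure D5:**
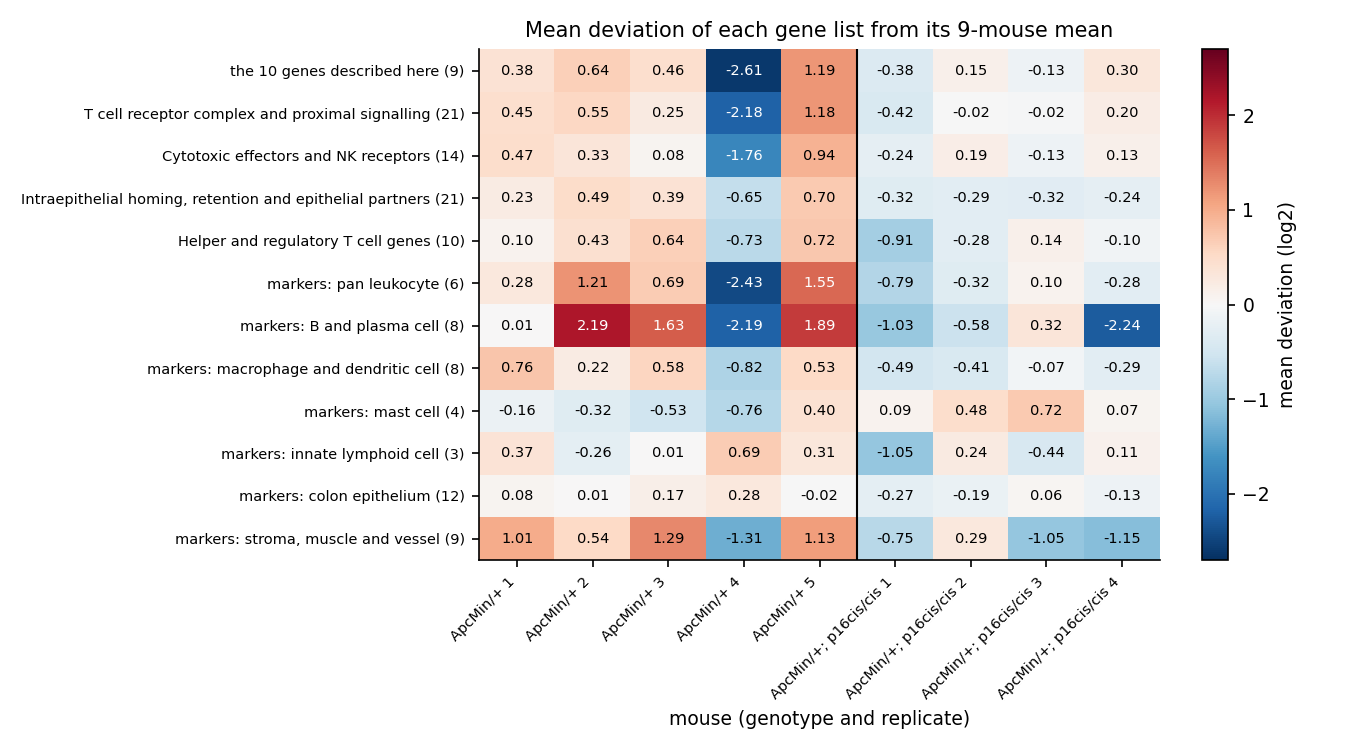
Mean deviation, on the log2 scale, of the tested genes of each list (rows, number of genes in parentheses) from their mean over the 9 mice, for each mouse (columns); red is above and blue below that mean, and the black line divides the genotypes. ApcMin/+ replicate 4 is at -2.61 for the 10 genes described here and at -2.43 for the pan leukocyte markers, and at 0.28 for the colon epithelium.

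Outside the genes described here, the 10 tested transcripts whose pattern over the 9 mice was most like that of the CD3 chains were named by their Pearson correlation with the mean log2 level of Cd3d, Cd3e and Cd3g, as a description without a test. They were Gimap3 (r = 0.989), Rinl, S1pr4, Ms4a4b, RP23-465M17.1, Thy1, Adgrg5, Pik3cd, Cyth4 and Ptprcap (r = 0.956). Thy1 is a surface glycoprotein of T cells, Pik3cd the catalytic subunit of the leukocyte PI3 kinase and Ptprcap the protein associated with CD45. None of the 10 passed the genotype test, with log2 fold changes from -0.66 for RP23-465M17.1 to 0.12 for Gimap3 (adjusted p = 0.660 and 0.934). The 9 points share the scaling of each library and include 1 low mouse, ApcMin/+ replicate 4, and without it the 10 correlations were between 0.811 and 0.968. Without p16cis/cis replicate 1 as well, the next farthest mouse, they were between 0.718 and 0.936.

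Of the genes described here, Cd8a stayed closest to the CD3 chains, with r = 0.976 over 9 mice and 0.928 without ApcMin/+ replicate 4. Gzma, Itgae and Cd7 followed CD3 less closely once that mouse was left out, with r = 0.537, 0.550 and 0.395 over 8 mice, where Cd8b1 had 0.680 and Gzmb 0.692. The correlations of Cd3d, Cd3e and Cd3g, 0.888, 0.954 and 0.945, include each gene in the mean it is compared with.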

How the data were processed

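The colonic mucosa libraries came from 5 ApcMin/+ and 4 ApcMin/+; p16cis/cis mice, grouped by the genotype label. The authors sequenced libraries made by rRNA depletion and oligo dT selection on the BGISEQ-500 platform, aligned reads with BOWTIE2, computed gene levels with RSEM and used DESeq2. Versions, genome build, annotation and the strand setting of counting are not given in the sources used here. The deposited table holds signal values, that is, counts per gene scaled by each mouse's size factor. All positive values (100%) were whole multiples of the value of 1 read to within 0.01 reads, so reads were recovered, and 0 columns were left unmapped. The fit had been planned for such values, with count tests as alternatives. The floors (3 reads) cover counting error only. The 95% intervals of the log2 fold changes come from the limma fit and its standard errors, which include the spread between mice.

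Genotypes were compared with limma 3.58.1 in R 4.3.3 (trended variances, genotype as the only term) on log2(normalized count + 1), which understates changes of low genes, over the 14410 genes that reached 10 in 4 mice or more. P-values were Benjamini-Hochberg adjusted over all of them, and a gene passed at an adjusted p under 0.05. edgeR 4.0.16 (quasi-likelihood) and DESeq2 1.42.0 on the recovered reads, other filters, a pseudocount of 0.1, TMM scaling, sex or the mitochondrial share as covariates, females only and each mouse left out were alternatives. Sex with ApcMin/+ replicate 4 left out was added after seeing the data. Fits were also tested on simulated data. Nothing in the labels says that replicates with 1 number share a litter or batch, and deviations from the group means correlated between mice of the same number at -0.175, 0.066, 0.0465 and 0.142, so the main fit treats the mice as unpaired.

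The 10 genes and all lists were chosen with earlier results of these data known. From each list every gene that passed was named (at most 5), or the 2 most abundant where none passed, along with the 10 genes closest to the CD3 chains. Other names are marked as chosen after their values were seen. Some genes that meet this rule are not reported here. Of the listed symbols, 5 were not found in the table (Trgc1, Trgc2, Trgc4, Cd244a and Gpr18). Coordinates are from GENCODE M21 (GRCm38), where all 10 identifiers had the same version, and promoter sequences are from RefSeq (GRCm38.p6).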

Additional observations from a re-analysis of the deposited data

Results flagged for a closer look

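In 8 of 44 groups of values checked, 1 mouse lay farther from the rest of its group than Dixon's 95% limit allows, where chance gives about 1 in 20 groups, or 2.2 of 44. All 8 were ApcMin/+ replicate 4, and the groups are not independent, since the genes vary together.

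Its normalized count was 5.085 for Cd3d, where the other ApcMin/+ mice had 26.78 to 48.81, and 8.898 for Cd3g, where they had 73.17 to 137.3. For Cd8b1 it was 1.271, against 38.98 to 52.21. The granzymes were at 7.627 for Gzma, against 102.7 to 204.3, and 2.542 for Gzmb, against 97.08 to 177.1. The 10 genes summed to 110.6, against 743.2 to 1373.4. The same mouse was high in 2 sums, the helper and regulatory T cell list (2459.6, against 1610.7 to 1786.5), and the colon epithelium markers (638960.7, against 384106.8 to 420841.8).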

How the results depend on the processing

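Of the 184 log2 fold changes of the 9 tested genes recomputed under alternatives, 145 kept their direction and side of the threshold. Of the rest, 30 reversed and 9 kept their direction and passed where they had not before. Gzmb, among the reversed, also passed in 2 alternatives, both without ApcMin/+ replicate 4. The number of the 10 genes that passed, 0, became 1 with DESeq2 and 5 with sex as a covariate and ApcMin/+ replicate 4 left out, and lay between 0 and 5 over the fits without 1 mouse, the 5 coming without ApcMin/+ replicate 4. The 3 genes of the 4 lists that passed became 11 with DESeq2 (genes under the limma filter included), 1 with females only, 0 with the mitochondrial share as a covariate, 17 with sex and no ApcMin/+ replicate 4, and 3 to 18 with each mouse left out. Over all genes 2434 passed, 1437 with sex as a covariate, 898 with females only, 0 with the mitochondrial share, 501 with a fold change over 2 added, 3251 with DESeq2, and 1183 to 3488 with each mouse left out (1183 without p16cis/cis replicate 4, 1257 without p16cis/cis replicate 2, 1287 without ApcMin/+ replicate 3, 1353 without ApcMin/+ replicate 2). The causes were not tested.

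Cd3e reversed to -0.15 with edgeR (TMM), -0.14 with DESeq2 and with edgeR (RLE), -0.23 with sex, -0.56 with females only, -0.62 with the mitochondrial share and -0.53 with sex and no ApcMin/+ replicate 4, with -0.35 to 0.53 over the mice left out. Cd3g reversed to -0.14 with females only, -0.31 with the mitochondrial share and -0.16 with sex and no ApcMin/+ replicate 4 (-0.08 to 0.87). Gzmb reversed to -0.50 (TMM), -0.49 (DESeq2 and RLE), -0.08 (sex), -0.71 (females), -0.16 (mitochondrial share) and -0.76 (sex and no ApcMin/+ replicate 4), with -0.76 to 0.66 over the mice left out. The fit of females only also lacks ApcMin/+ replicate 4, a male, so its reversals are not separate from leaving that mouse out. With 1 mouse left out, Cd8a ran from -0.92 to 0.11, Cd8b1 from -1.09 to 0.05 and Gzma from -1.05 to 0.09. With the replicate number as a block, Cd8a, Cd8b1 and Gzma were at 0.11, 0.05 and 0.09, 0 of the 10 genes and 2074 of all genes passed, and 2 of 4 numbers correlated best with their own, so the block marks only a shared number.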
